A study of Mus musculus with 16 samples.

Results

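The genes described here belong to adrenergic and cyclic AMP signalling in the heart. The 9 listed genes were the receptors Adrb1, Adra1a and Adra1b, the adenylyl cyclase Adcy5, the phosphodiesterases Pde3a, Pde4b and Pde4d, the receptor kinase Grk5 and the phosphatase inhibitor Ppp1r1a. A gene was taken from the array rows whose annotation gives that gene alone, and from its brightest row where it had several. This left 6 of the 9 genes, of 30141 genes named in this way on the array. Adrb1 and Adra1a had no row annotated to them in the table used here, and the row of Pde4d also lists a second gene, so these 3 were not analysed here.

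Expression microarrays measured RNA from the atria of male C57BL/6 mice aged 10 weeks. A ligature around the left anterior descending artery produced a myocardial infarction (MI), and atria were collected 1, 3 or 7 days afterwards. Mice that had sham surgery were the controls, and the series title counts them as 0 days, with no other statement of when they were sampled in the sources used here. Each of the 4 groups had 4 arrays, numbered 11 to 14 at MI day 1, 31 to 34 at MI day 3, 71 to 74 at MI day 7 and 1 to 4 in sham, and the p-values below measure the spread between these arrays. The ligated artery supplies the ventricle, so the atria are tissue outside its main territory.

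Noradrenaline and adrenaline act on the heart through beta and alpha adrenergic receptors. Beta receptors switch on adenylyl cyclases through the stimulatory G protein, the cyclic AMP formed activates protein kinase A, and that kinase raises the rate and force of contraction. Phosphodiesterases break cyclic AMP down, receptor kinases uncouple stimulated receptors from their G proteins, and phosphatases remove the phosphate groups that protein kinase A adds. Alpha-1 receptors use another G protein class and act through phospholipase C and calcium rather than cyclic AMP.

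Signals are log2 values as deposited, and every difference is a log2 difference between group means from 1 limma fit over all 16 arrays and 18419 genes, with Benjamini-Hochberg adjustment over those genes. A gene was called where the adjusted p was under 0.05. All 6 analysed genes passed the filter on dim genes, which asked for at least 4 arrays above the array's own median signal. Adra1b passed it in 10 arrays, of which 1 was at day 1, 2 at day 3, 3 at day 7 and 4 in sham, and the other 5 genes passed it in all 16.

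Array 31 of day 3 and array 13 of day 1 stood apart from the other arrays. The share of pairs of a positive and a negative control row in which the positive row was brighter was 0.743 in array 31 and 0.755 in array 13, against 0.793 to 0.825 in the other 14 arrays. Neutrophil markers, averaged over 6 genes and set against the sham mean, were 6.61 higher in array 31 and 1.83 to 1.97 higher in the other 3 day 3 arrays, and 6.97 higher in array 13 and 5.31 to 5.59 higher in the other 3 day 1 arrays. The mean of 5 general cardiomyocyte markers, relative to sham, was -1.997 in array 31 and -1.13 in array 13, and lay between -0.55 and -0.25 in the other day 1 and day 3 arrays. Of 6 atrial markers, Bmp10 was not above background in sham or at days 1 and 3, Nppa was at the top of the scale, as were Tnnt2 and, closely, Myh6 of the general list, and Myl7 and Sln averaged 17.97 and 17.97 in sham. The atrial list ranked the arrays otherwise, with -4.21 in array 31, -1.89 in array 13 and the lowest day 1 value, -3.35, in array 12. Several results are therefore also given without arrays 13 and 31.

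The plot of single arrays shows the 6 genes as measured. Grk5 lay higher in all 12 arrays after infarction than in any sham array, and Adcy5 and Pde3a lay lower in all 12. Pde4b was higher at day 1 and lay within or close to the sham range later, Ppp1r1a stayed near background in every group, and Adra1b lay below the background median in all 12 arrays after infarction.

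**Figure D1:**
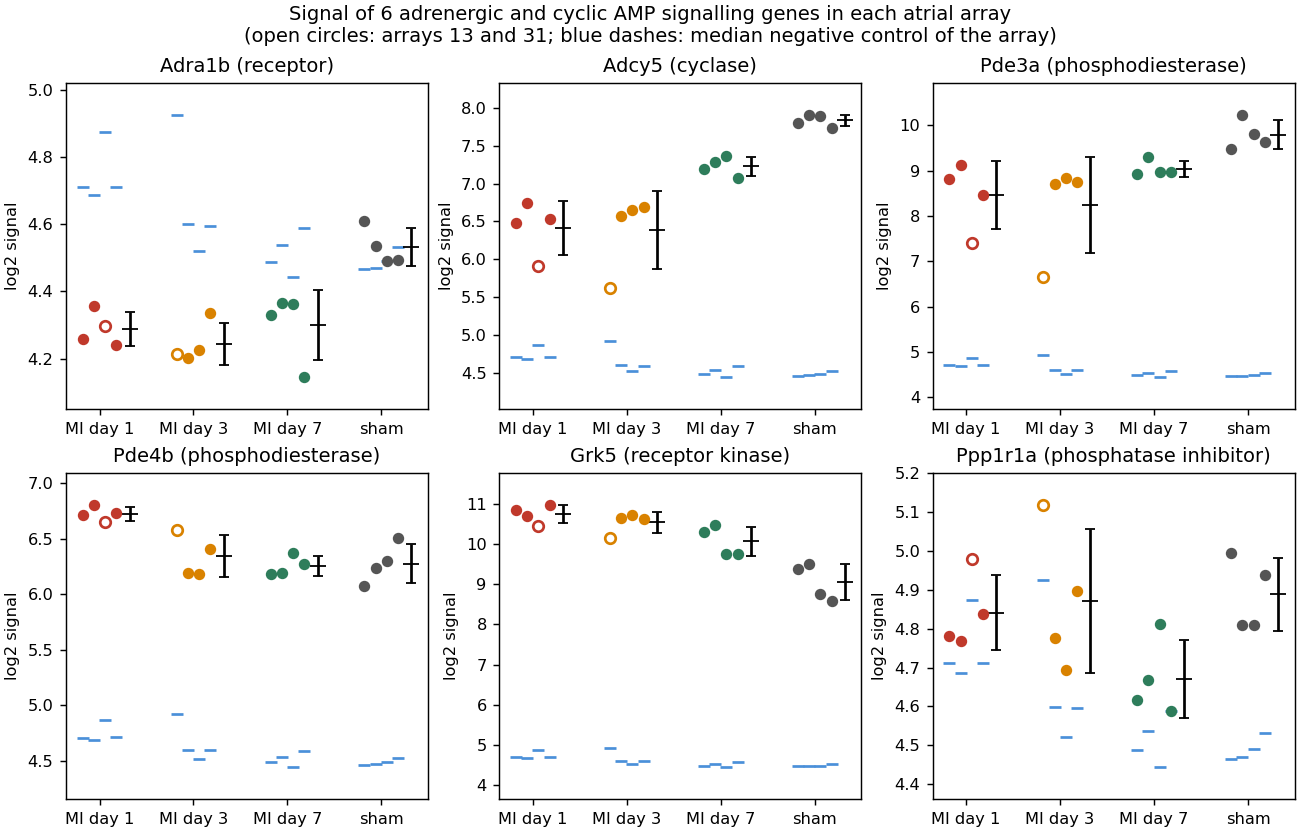
Deposited log2 signal (vertical axis) of the 6 analysed genes in each of the 16 arrays, with MI day 1, 3 and 7 left of sham. Points are arrays (open for arrays 13 and 31), blue dashes are the median negative control of each array, and black bars are the group mean and SD. Adcy5 lies between 5.63 and 7.36 after infarction and between 7.74 and 7.90 in sham, and Grk5 between 9.75 and 10.98 after infarction and between 8.59 and 9.50 in sham.

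Of these 6 genes, 5 were called at day 1 against sham, 2 higher and 3 lower, where 47.1% of all tested genes were called, 24.9% higher and 22.2% lower. At day 3 against sham 4 were called, 1 higher and 3 lower, against 43.7% of all tested genes, 23.5% higher and 20.2% lower. By day 7 there were 2 called against sham, 1 higher and 1 lower, against 24.8% of all tested genes, 14.9% higher and 9.92% lower. With so many genes called throughout the array and 6 members, these counts are a description of the genes and do not set them apart from the rest of the array. Values of the 4 arrays after infarction lay wholly above those of sham for 2 genes at day 1, 1 at day 3 and 1 at day 7, where 30.9%, 22.3% and 19.9% of all tested genes did so, and wholly below for 3 genes at each day, where 24.2%, 20.5% and 18.4% did. The median difference over the 6 genes was -0.15 at day 1, -0.15 at day 3 and -0.23 at day 7, where the median over all tested genes was 0.06, 0.08 and -0.01. Any difference from sham, tested jointly over the 3 days with limma's F test, was called for 5 of the 6 genes and for 52.3% of all tested genes, and Ppp1r1a was the exception (adjusted p = 0.139).

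The scale of the deposited values bears on small differences. The median over all tested genes at day 1 against sham was 0.06 as deposited, -0.15 after quantile normalisation and -0.19 with the arrays centred on their negative controls. At day 3 it was 0.08, -0.07 and -0.09.

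Adra1b encodes the alpha-1B adrenergic receptor, a receptor of the phospholipase C branch. Its signal was 4.26, 4.36, 4.30 and 4.24 in the day 1 arrays, 4.21, 4.20, 4.23 and 4.34 at day 3, 4.33, 4.36, 4.36 and 4.14 at day 7, and 4.61, 4.54, 4.49 and 4.49 in sham. All 12 arrays after infarction lay below all 4 sham arrays. Adra1b was nevertheless at the floor of the assay: 0 of 12 arrays after infarction and 3 of 4 sham arrays exceeded the median of that array's negative control rows.

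As fitted, Adra1b was lower than sham, with a difference of -0.24 at day 1 (SE 0.058, adjusted p = 0.00390), -0.29 at day 3 (adjusted p = 0.00110) and -0.23 at day 7 (adjusted p = 0.00893). With values set to at least the negative control median, the same differences became 0.20, 0.12 and -0.03. Every value after infarction was then that median, so these differences follow the control rows and do not test Adra1b. At a signal below background, no size can be read for this receptor. The share of negative control rows dimmer than Adra1b averaged 39.2% at day 1, 39.6% at day 3, 44.3% at day 7 and 51.2% in sham. At day 7 the call was lost after quantile normalisation (adjusted p = 0.144) and after centring on the array median (adjusted p = 0.0872) or on the negative controls (adjusted p = 0.113). The calls at days 1 and 3 held, at -0.42 and -0.38 after quantile normalisation and -0.50 and -0.46 after centring on the negative controls. Between days after infarction Adra1b was not called in any comparison.

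Adcy5, the adenylyl cyclase that is a main cardiac isoform, was lower than sham at days 1 and 3. The signal was 6.48, 6.74, 5.91 and 6.53 at day 1, 5.63, 6.57, 6.66 and 6.70 at day 3, 7.20, 7.29, 7.36 and 7.07 at day 7, and 7.80, 7.90, 7.89 and 7.74 in sham. Every array after infarction lay below every sham array, and every day 7 array lay above every day 1 and day 3 array. Arrays 13 and 31 were the lowest of their groups. Group means were 6.42 ± 0.35 at day 1, 6.39 ± 0.51 at day 3, 7.23 ± 0.13 at day 7 and 7.83 ± 0.077 in sham (SD, n = 4 each).

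The Adcy5 difference from sham was -1.42 at day 1 (SE 0.21, adjusted p = 0.000156) and -1.45 at day 3 (adjusted p = 0.000103). At day 7 it was -0.60 (adjusted p = 0.0529) and missed the threshold. That last call depended on arrays outside the comparison. The adjusted p was 0.0319 without array 13, 0.00343 without array 31 and 6.16e-05 without both. The difference itself stayed at -0.60 each time, since these arrays enter only through the estimate of spread shared by all groups. Leaving out both arrays gave -1.25 at day 1 and -1.19 at day 3. Adcy5 rose between days, by 0.84 at day 7 against day 3 (adjusted p = 0.0197) and by 0.81 at day 7 against day 1 (adjusted p = 0.0131), and differed by -0.03 between day 3 and day 1 (adjusted p = 0.957). Without both arrays the day 7 values were 0.59 above day 3 and 0.65 above day 1. The day 7 against day 3 call was lost after quantile normalisation (0.96, adjusted p = 0.0529), after centring on the array median (0.95, adjusted p = 0.0515) and in a fit of those 2 groups alone (adjusted p = 0.0900).

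The promoter of Adcy5 is printed because this gene had the smallest adjusted p of the members that fell. It is shown as 250 bases before and 50 after the transcript start from RefSeq (GRCm38.p6, chr16:35154614-35154913, + strand). The window holds no TGACG, the core of the cyclic AMP response element, on either strand, and so no letters are in capitals.

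Adcy5: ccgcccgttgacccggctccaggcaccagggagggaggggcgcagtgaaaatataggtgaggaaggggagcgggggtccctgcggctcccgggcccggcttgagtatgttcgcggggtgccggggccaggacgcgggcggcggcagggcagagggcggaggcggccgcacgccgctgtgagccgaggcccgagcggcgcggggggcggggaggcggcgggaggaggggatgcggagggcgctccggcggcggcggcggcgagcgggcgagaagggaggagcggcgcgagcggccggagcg

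Pde3a encodes phosphodiesterase 3A, a cyclic AMP-degrading enzyme of heart muscle and the target of milrinone. It was lower than sham at days 1 and 3. The signal was 8.82, 9.12, 7.41 and 8.47 at day 1, 6.65, 8.71, 8.83 and 8.75 at day 3, 8.92, 9.30, 8.98 and 8.96 at day 7, and 9.49, 10.23, 9.81 and 9.64 in sham. All 12 arrays after infarction lay below all 4 sham arrays, and arrays 13 and 31 lay far below the others of their groups. The means were 8.46 ± 0.75 at day 1, 8.23 ± 1.06 at day 3, 9.04 ± 0.18 at day 7 and 9.79 ± 0.32 in sham (SD, n = 4 each).

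The fitted difference of Pde3a was -1.34 at day 1 (SE 0.44, adjusted p = 0.0250), -1.56 at day 3 (adjusted p = 0.0109) and -0.75 at day 7 (adjusted p = 0.252). The day 3 difference without array 31 was -1.03 (adjusted p = 0.0131). The day 1 difference was -0.99 without array 13 (adjusted p = 0.0883), -1.19 without sham array 2 (adjusted p = 0.0687) and -1.33 without sham array 3 (adjusted p = 0.0509), and each of these ended the call. Without both array 13 and array 31 the spread was smaller, and the differences were -0.99 at day 1 (adjusted p = 0.000462), -1.03 at day 3 (adjusted p = 0.000334) and -0.75 at day 7 (adjusted p = 0.00269), all 3 called. Between days Pde3a was not called, with 0.81 at day 7 against day 3 (adjusted p = 0.245), although those 2 groups of arrays did not overlap.

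Pde4b encodes phosphodiesterase 4B, a cyclic AMP-specific enzyme that is also induced in stimulated leukocytes. Its signal was 6.71, 6.81, 6.65 and 6.73 at day 1, 6.58, 6.20, 6.19 and 6.41 at day 3, 6.18, 6.19, 6.37 and 6.27 at day 7, and 6.07, 6.23, 6.30 and 6.50 in sham. The day 1 arrays all lay above the sham arrays, and the day 3 and day 7 arrays overlapped with sham. Array 31 was the highest of day 3 and the nearest of that group to day 1. Group means were 6.72 ± 0.066 at day 1, 6.34 ± 0.19 at day 3, 6.25 ± 0.087 at day 7 and 6.28 ± 0.18 in sham (SD, n = 4 each).

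Pde4b was higher than sham by 0.45 at day 1 (SE 0.10, adjusted p = 0.00286), and differed from it by 0.07 at day 3 (adjusted p = 0.607) and by -0.02 at day 7 (adjusted p = 0.935). It was lower at day 3 than at day 1, with a difference of -0.38 (adjusted p = 0.0321) and lower at day 7 than at day 1, with a difference of -0.47 (adjusted p = 0.00393). Without arrays 13 and 31 the day 1 difference from sham was 0.47. The size at day 1 was close to the shift between scalings: it was 0.24 after quantile normalisation (adjusted p = 0.0561), 0.29 after centring on the array median (adjusted p = 0.0513) and 0.19 after centring on the negative controls (adjusted p = 0.156). The day 3 against day 1 call was lost when any of arrays 11, 12, 14, 32, 33 and 34 was left out, with differences of -0.33 to -0.40 and adjusted p between 0.0583 and 0.111. It was also lost under all 3 scalings. The day 7 against day 1 call was lost after centring on the array median (-0.33, adjusted p = 0.0522) or on the negative controls (-0.24, adjusted p = 0.104).

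The annotation holds 4 promoter windows for Pde4b, a gene with several transcript starts. The printed window (RefSeq, GRCm38.p6, chr4:102421305-102421604, + strand) is shown because it is the only 1 of the 8 windows of Adcy5, Adra1b, Grk5 and Pde4b that holds TGACG on either strand. The match, in capitals, lies on the reverse strand and begins 34 bases before the start. The full element TGACGTCA was in 0 of the 8 windows. Among 32851 mouse promoters of the same length, 20.8% hold TGACG and 1.79% the full element, so 1 of 8 is a common count. A match of letters is a description of the window and says nothing of binding.

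Pde4b: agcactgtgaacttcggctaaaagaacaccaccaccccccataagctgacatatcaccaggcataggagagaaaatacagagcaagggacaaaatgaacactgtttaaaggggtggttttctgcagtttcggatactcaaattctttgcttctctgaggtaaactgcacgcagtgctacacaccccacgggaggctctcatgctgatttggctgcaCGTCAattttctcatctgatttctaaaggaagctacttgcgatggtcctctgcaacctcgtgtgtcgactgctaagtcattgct

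Grk5 encodes G protein-coupled receptor kinase 5, which phosphorylates stimulated receptors and, in heart muscle, can also enter the nucleus. It was the member with the largest rise. The signal was 10.84, 10.71, 10.46 and 10.98 at day 1, 10.16, 10.65, 10.73 and 10.62 at day 3, 10.29, 10.47, 9.75 and 9.76 at day 7, and 9.37, 9.50, 8.77 and 8.59 in sham. Each of the 12 arrays after infarction exceeded each sham array. The sham arrays fell into a higher pair (1 and 2) and a lower pair (3 and 4), and so did the day 7 arrays (71 and 72 above 73 and 74). Group means were 10.75 ± 0.22 at day 1, 10.54 ± 0.26 at day 3, 10.07 ± 0.37 at day 7 and 9.06 ± 0.45 in sham (SD, n = 4 each).

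Against sham Grk5 was higher by 1.69 at day 1 (SE 0.23, adjusted p = 7.36e-05), 1.48 at day 3 (adjusted p = 0.000163) and 1.01 at day 7 (adjusted p = 0.00558). These 3 calls held with any single array left out and under every scaling tried. Arrays 13 and 31 were the lowest of their groups here too, and without both the differences were 1.79 at day 1, 1.61 at day 3 and 1.01 at day 7. Day 7 was lower than day 1, with a difference of -0.68 (adjusted p = 0.0437), with overlapping arrays. That call was lost without any 1 of arrays 11, 12, 14, 32, 34, 71, 73 and 74, with differences of -0.76 to -0.58 and adjusted p between 0.0516 and 0.110, and after quantile normalisation (-0.29, adjusted p = 0.434) or centring on the array median (-0.54, adjusted p = 0.141) or the negative controls (-0.45, adjusted p = 0.201).

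The promoter of Grk5 is printed because this gene had the largest rise of the members (RefSeq, GRCm38.p6, chr19:60889499-60889798, + strand). It holds no TGACG on either strand, and no letters are in capitals.

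Grk5: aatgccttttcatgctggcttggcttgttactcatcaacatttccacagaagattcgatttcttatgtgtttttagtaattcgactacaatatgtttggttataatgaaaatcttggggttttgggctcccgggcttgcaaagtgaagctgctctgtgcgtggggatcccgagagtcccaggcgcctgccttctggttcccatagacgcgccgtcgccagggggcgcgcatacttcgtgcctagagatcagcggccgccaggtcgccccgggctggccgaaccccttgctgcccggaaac

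Ppp1r1a encodes protein phosphatase inhibitor 1, which blocks protein phosphatase 1 once protein kinase A has phosphorylated it. Its signal was 4.78, 4.77, 4.98 and 4.84 at day 1, 5.12, 4.78, 4.69 and 4.90 at day 3, 4.62, 4.67, 4.81 and 4.59 at day 7, and 4.996, 4.81, 4.81 and 4.94 in sham. All 4 groups overlapped, and the 3 lowest of the 16 values were at day 7. The gene was close to background throughout, with 52.1% of negative control rows dimmer at day 1, 55.0% at day 3, 53.9% at day 7 and 59.8% in sham.

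No difference of Ppp1r1a from sham was called, with -0.05 at day 1 (SE 0.088, adjusted p = 0.676), -0.02 at day 3 (adjusted p = 0.889) and -0.22 at day 7 (adjusted p = 0.0902). The day 7 value was called without array 31 (adjusted p = 0.0277), after quantile normalisation (adjusted p = 0.0367) and after centring on the array median (adjusted p = 0.0254). The day 1 value was called lower under the other scalings, at -0.23 after quantile normalisation (adjusted p = 0.0134), -0.20 after centring on the array median (adjusted p = 0.0230) and -0.30 after centring on the negative controls (adjusted p = 0.00737). At a signal so near background, neither the presence nor the absence of a change is settled by these arrays.

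**Figure D2:**
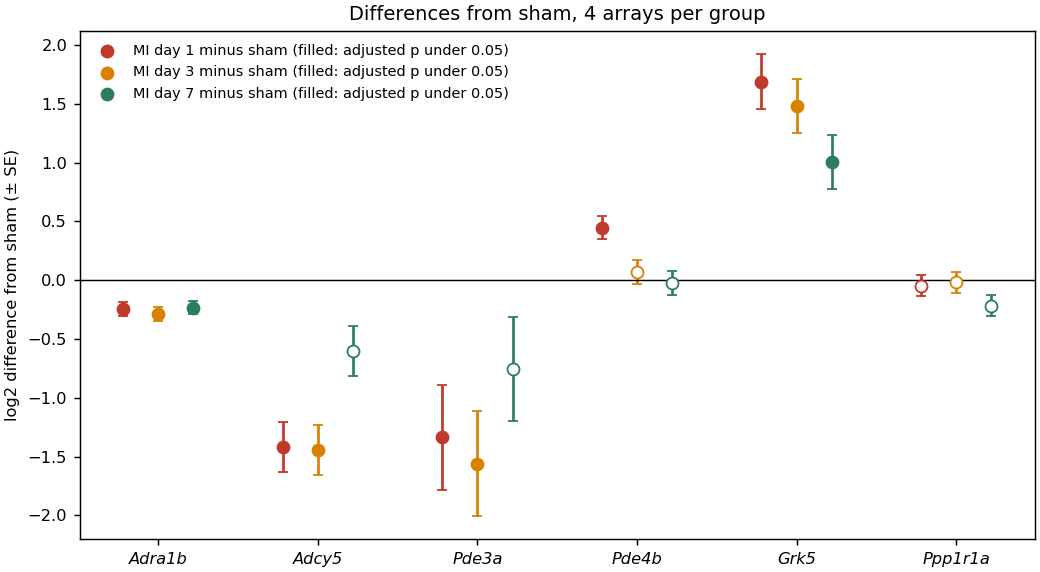
Log2 difference from sham (vertical axis) of the 6 genes at MI day 1, 3 and 7. Bars are the SE of the limma fit with 4 arrays a group, and filled points had an adjusted p under 0.05. Grk5 is higher at all 3 days, between 1.01 and 1.69, and Adcy5 and Pde3a are lower, with the smallest differences, -0.60 and -0.75, at day 7.

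Between the days after infarction, a smaller share of the whole array was called than at day 1 or day 3 against sham. At day 3 against day 1, 1 of the 6 genes was called (Pde4b, lower), where 8.11% of all tested genes were called, 5.95% higher and 2.16% lower, and its arrays did not overlap, as for 3.45% of tested genes in that direction and 6.95% in the other. Set against day 3, day 7 had 1 gene called (Adcy5, higher), against 12.6% of all tested genes, 4.06% higher and 8.57% lower. Both Adcy5 and Pde3a had day 7 arrays wholly above those of day 3, as did 10.4% of tested genes, and no member had them wholly below, as did 11.5%. Set against day 1, day 7 had 3 genes called (Adcy5 higher, Pde4b and Grk5 lower), against 26.4% of all tested genes, 13.7% higher and 12.7% lower. The arrays of those groups did not overlap for Adcy5, higher like 18.2% of tested genes, and for Pde4b, lower like 23.5%. Of these 5 calls, the 2 of Adcy5 and the day 7 against day 1 call of Pde4b held with any single array left out.

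Markers of several cell types also differed from sham after infarction. Macrophage and monocyte markers (6 of 6 genes above background at each day) averaged 3.07 to 3.73 above the sham mean at day 1, 3.06 to 4.36 at day 3 and 2.14 to 3.57 at day 7. Fibroblast markers (5 genes) spanned -1.65 to -0.37 relative to sham at day 1, -0.43 to 1.26 at day 3 and 2.36 to 2.89 at day 7. These means join unlike genes. At day 1 Dcn, Lum, Tcf21 and Dpt were called lower, while Col1a1 averaged 7.46 against 6.92 in sham. At day 3 Col1a1 alone was called, higher at 10.90, and Dcn and Dpt averaged below sham. At day 7 all but Dcn were called higher. Atrial cardiomyocyte markers spanned -3.35 to -1.89 at day 1, -1.35 to -0.97 in 3 day 3 arrays with -4.21 in array 31, and -1.46 to -0.14 at day 7. Ventricular cardiomyocyte markers (4 genes) averaged -0.66 at day 1, -0.82 at day 3 and -0.49 at day 7 relative to sham. The 4 lymphocyte markers were not above background in any group, and 3 or 4 of the 4 Schwann cell and nerve markers were not above background in each. In whole tissue, fewer cells of a type and less RNA per cell cannot be told apart, and the part of cell composition in the differences of these 6 genes was not tested.

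**Figure D3:**
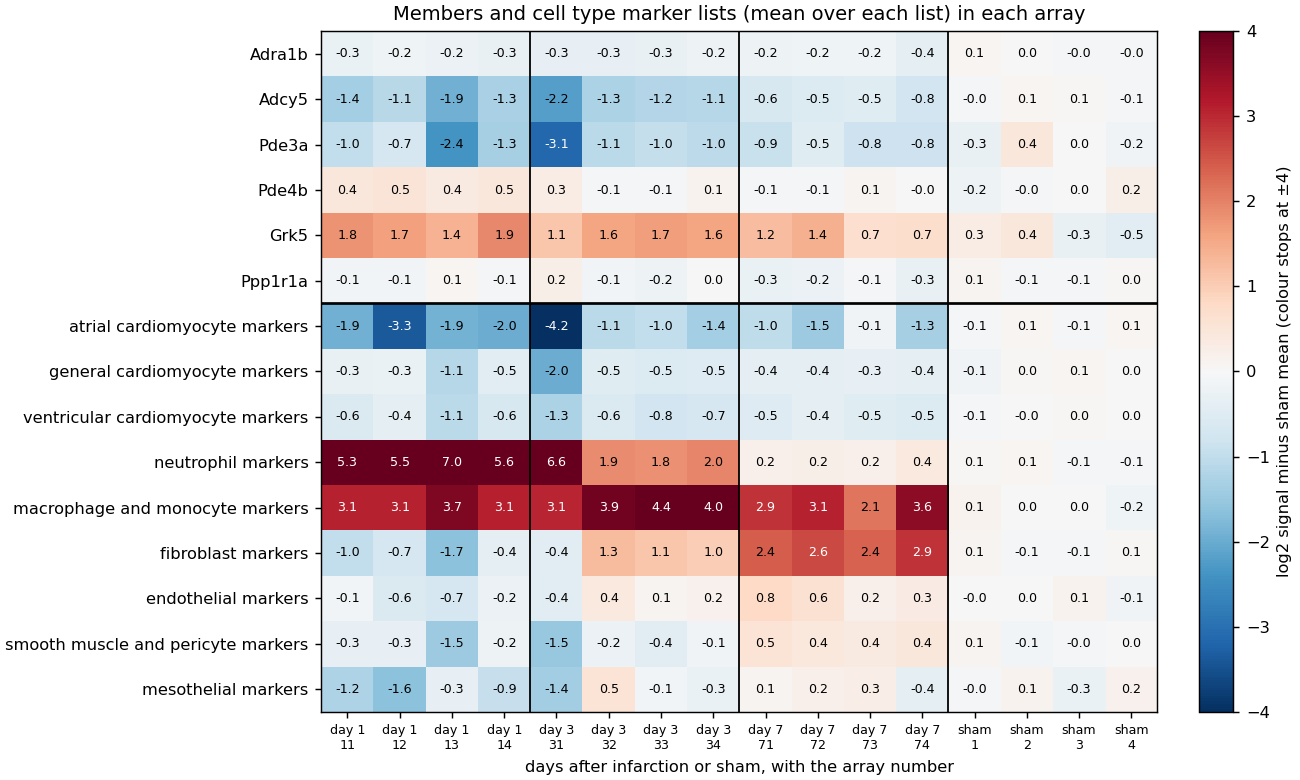
Log2 signal minus the sham mean for the 6 genes (upper rows) and for the mean of each marker list (lower rows) in each of the 16 arrays, with MI days left of sham. Colour stops at 4 in either direction. Array 31 has the lowest Adcy5 and Pde3a values and the lowest cardiomyocyte marker means, and a neutrophil mean of 6.61, above those of the other day 3 arrays.

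The wider pathway was examined in 11 lists of 101 genes, of which 88 were annotated and 73 were tested. At day 1 against sham 36 of the 73 were called (49.3%), 12 higher and 24 lower. At day 3 against sham 36 were called (49.3%), 14 higher and 22 lower. By day 7 there were 17 called against sham (23.3%), 12 higher and 5 lower. These shares lie near those of all tested genes given above. The median difference over the 73 genes was -0.06, -0.08 and -0.02 at days 1, 3 and 7. The split by direction depended on the scale: with quantile normalisation it was 5 higher and 33 lower at day 1, 7 higher and 26 lower at day 3, and 6 higher and 5 lower at day 7, while over all tested genes the higher share of calls at day 1 was 30.3% in place of 52.9%. Among the called genes of these lists, 2 changed sign under another scaling, both at day 3: Ppp1cc (0.48 as deposited, -0.04 after quantile normalisation) and Adcy3 (0.12 as deposited, between -0.06 and -0.01 under the 3 others).

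**Figure D4:**
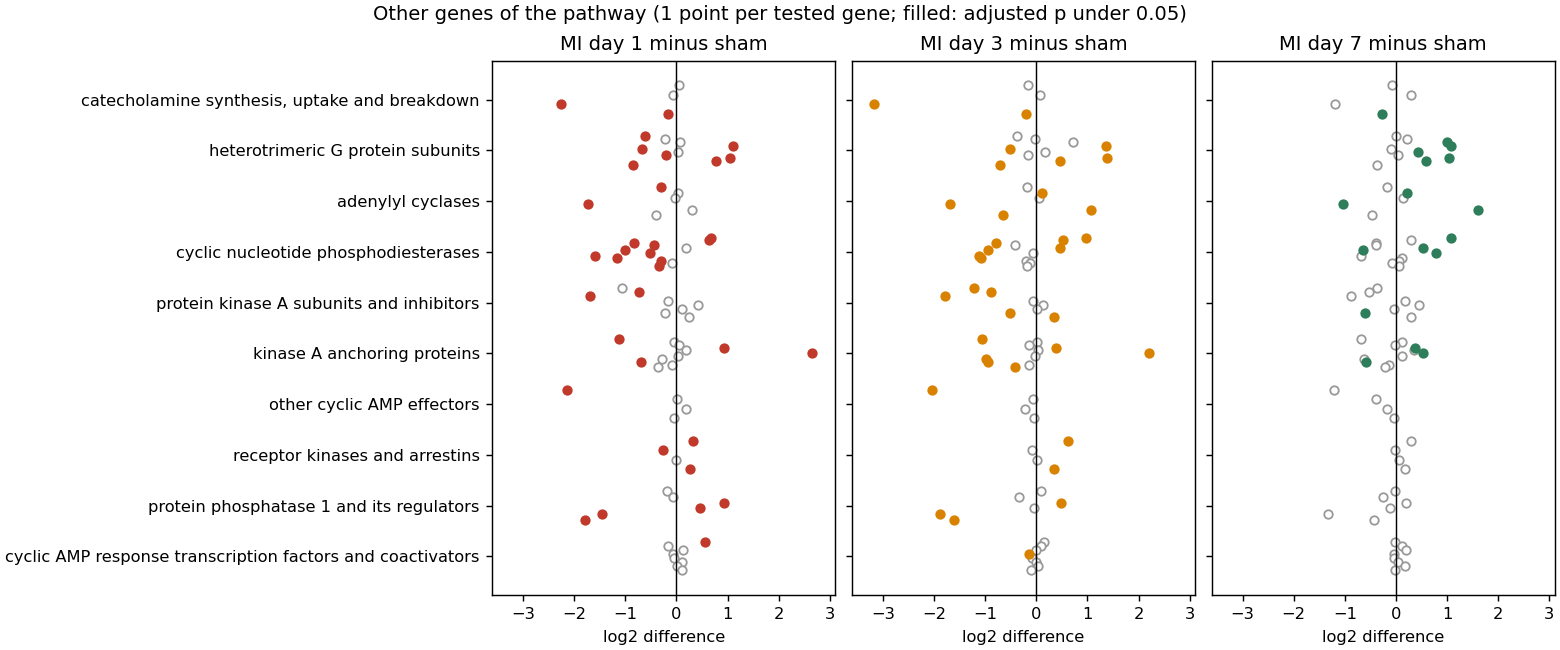
Log2 difference from sham (horizontal axis) of each tested gene of the pathway, 1 point a gene, by list, with 1 panel each for MI day 1, 3 and 7. Filled points had an adjusted p under 0.05. Phosphodiesterases, the list with the most tested genes, have 8 lower calls of 12 at day 1, 4 at day 3 and 1 at day 7. Over all tested genes, 22.2%, 20.2% and 9.92% were called lower at those days.

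The list of alpha and beta adrenergic receptors other than the members gave no information, since 1 of its 6 genes was annotated and 0 were tested. Of 4 tested genes of catecholamine synthesis, uptake and breakdown, 2 were lower at day 1, 2 at day 3 and 1 at day 7. Maob, the monoamine oxidase B that breaks down amines, differed from sham by -2.26 at day 1 (SE 0.72, adjusted p = 0.0203), -3.18 at day 3 (adjusted p = 0.00258) and -1.19 at day 7 (adjusted p = 0.263). Array 31 carried much of the day 3 value, with a Maob signal of 6.38 against 9.82 to 10.42 in the other day 3 arrays, and without array 13 the day 1 difference was -1.73 (adjusted p = 0.0730). Slc18a2, the vesicular monoamine transporter of nerve endings and mast cells, was the other gene called lower (-0.17, -0.19 and -0.28). However, it was not above background in any array at days 1 and 3, and was above it in only 1 of 4 arrays at day 7. With a floor at the negative control median the differences were 0.046, -0.039 and -0.17, none of them called. At days 1 and 3 that floor replaced every value of the day, so these differences follow the control rows. No size can be read for Slc18a2.

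Among 10 G protein subunits, 3 were higher and 4 lower at day 1, 3 higher and 2 lower at day 3, and 5 higher and 0 lower at day 7. Gnb1, a beta subunit, was higher by 1.05, 1.38 and 1.03 at days 1, 3 and 7 (SE 0.13, adjusted p between 3.84e-06 and 0.000103). After quantile normalisation Gnb1 was 0.51 at day 1, no longer called (adjusted p = 0.0994), and 0.86 at day 3. The inhibitory alpha subunit Gnai3 was higher by 1.10, 1.37 and 1.07 (SE 0.14, adjusted p between 5.62e-06 and 0.000107), and by 0.67 at day 1 after quantile normalisation. Gnai2, also inhibitory and abundant in leukocytes, differed by 0.08 and 0.72 at days 1 and 3, neither of them called with all arrays, and was higher by 0.99 at day 7 (SE 0.33, adjusted p = 0.0387), a call lost without any 1 of 7 arrays (sham 1 to 4, 71, 72 and 74), at 0.91 to 1.04, and under all 3 other scalings (0.85 to 0.98). Without array 31 Gnai2 was called higher at day 3 (1.06, adjusted p = 0.00398). The stimulatory alpha subunit Gnas, named here after its values were seen, was lower, with a difference of -0.20 at day 1.

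Adcy6, the other main cardiac cyclase, moved in the same direction as Adcy5. It was lower than sham, with a difference of -1.73 at day 1 (SE 0.30, adjusted p = 0.000443), -1.68 at day 3 (adjusted p = 0.000449) and -1.03 at day 7 (adjusted p = 0.0211). The day 7 call was lost without sham array 2, 3 or 4 or array 73, at -0.997 to -0.96 and adjusted p of 0.0529 to 0.0586, and under both centrings (-1.05, adjusted p = 0.0607 and 0.0542). Without array 31 the day 3 difference was -1.37. Adcy7, a cyclase abundant in blood cells, differed by 0.30 at day 1 (SE 0.18, adjusted p = 0.163, and 0.0338 without array 31) and was higher by 1.06 at day 3 (adjusted p = 0.000248) and by 1.61 at day 7 (adjusted p = 2.71e-05). Adcy9, a widely expressed cyclase, was lower, with a difference of -0.66 at day 3 (SE 0.19, adjusted p = 0.0107) and was not called at day 1 (-0.40) or day 7 (-0.46). It was called at day 1 after quantile normalisation (-0.62) or centring on the negative controls (-0.66) and without array 12 (-0.59), and at day 7 without array 12 (adjusted p = 0.0321) or 13 (adjusted p = 0.0425). Over the 6 cyclases tested beside Adcy5, 0 were higher and 2 lower at day 1, 2 higher and 2 lower at day 3, and 2 higher and 1 lower at day 7.

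Of 12 tested phosphodiesterases other than the members, 2 were higher and 8 lower at day 1, 3 higher and 4 lower at day 3, and 3 higher and 1 lower at day 7. The 8 lower calls at day 1 were the most of any list, but this list also had the most tested genes. Over all tested genes 22.2% were called lower at day 1. At day 3 the kinase A and anchoring protein lists also had 4 lower calls. Pde7a, a cyclic AMP-specific enzyme, was lower, with a difference of -1.60 at day 1 (SE 0.37, adjusted p = 0.00324) and -1.12 at day 3 (adjusted p = 0.0231), and the day 3 call was lost without sham array 2 (-1.10) or 4 (-0.98) and was -0.72 without array 31 (adjusted p = 0.0497). Its relative Pde7b was lower, with a difference of -1.16 at day 1 (SE 0.36, adjusted p = 0.0190) and -1.08 at day 3 (adjusted p = 0.0258), with the day 1 call lost without array 13 (-0.82) and the day 3 call without array 31 (-0.68), sham array 2 (-1.09) or sham array 4 (-1.02). Pde1a, a calcium- and calmodulin-dependent enzyme, was higher at all 3 days, by 0.68, 0.97 and 1.08 (SE 0.089, adjusted p between 2.41e-06 and 4.91e-05), and by 0.42 at day 1 with arrays centred on the negative controls. Pde4a, a relative of Pde4b named after its values were seen, was the single phosphodiesterase called lower at day 7 and was lower, with a difference of -0.9996 at day 1, -0.95 at day 3 and -0.64 at day 7 (SE 0.098), while Pde4b was higher at day 1.

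Of 8 protein kinase A subunits and inhibitors, 0 were higher and 2 lower at day 1, 1 was higher and 4 lower at day 3, and 0 were higher and 1 lower at day 7. Prkaca, the main catalytic subunit, was lower, with a difference of -1.68 at day 1 (SE 0.42, adjusted p = 0.00534) and -1.78 at day 3 (adjusted p = 0.00340), and was not called at day 7 (-0.88, adjusted p = 0.148) except without array 31 (adjusted p = 0.0348). Without array 13 the day 1 difference was -1.28, and without array 31 the day 3 difference was -1.33. The inhibitor peptide genes Pkia and Pkig, whose products block that subunit, lay lower as well. Pkia was lower, with a difference of -1.21 at day 3 (SE 0.42, adjusted p = 0.0314), a call lost without array 31 (-0.74) or without sham array 1, 2 or 4 (-1.22, -1.16 and -1.18). At day 1 Pkia was -1.07 (adjusted p = 0.0506), and it was called lower under all 3 other scalings (-1.56 to -1.23), without array 12 (-1.32), and without array 31 or 32 (adjusted p = 0.00546 and 0.0493). Pkig was lower, with a difference of -0.73 at day 1 (SE 0.24, adjusted p = 0.0227), a call lost without array 13 (-0.47) or sham array 2 (-0.70), and -0.89 at day 3.

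Anchoring proteins, which hold protein kinase A near its targets, were called in both directions: of 11, 2 higher and 2 lower at day 1, 2 higher and 4 lower at day 3, and 2 higher and 1 lower at day 7. Akap2 had the largest rise of the 73 pathway genes, by 2.64 at day 1 (SE 0.17, adjusted p = 2.06e-07), 2.21 at day 3 (adjusted p = 7.40e-07) and 0.53 at day 7 (adjusted p = 0.0364), the last of these lost without any 1 of sham arrays 2 to 4 and arrays 71 and 72, at 0.42 to 0.56, and under all 3 other scalings (0.49 to 0.51). Akap1, which anchors the kinase at mitochondria, was lower, with a difference of -1.12 at day 1 and -1.07 at day 3 (SE 0.27). Akap6, the anchor at the nuclear envelope of heart muscle cells, was lower, with a difference of -0.98 at day 3 (SE 0.28, adjusted p = 0.0112), and -0.64 without array 31 (adjusted p = 0.0108). Among 4 other effectors, Bves, a popeye protein that binds cyclic AMP in heart muscle, was the single gene called, lower, difference -2.14 at day 1 (SE 0.44, adjusted p = 0.00148) and -2.03 at day 3 (adjusted p = 0.00179), and -1.52 at day 3 without array 31.

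Among 4 tested receptor kinases and arrestins beside Grk5, differences were small next to those of Grk5. Grk1, Grk2 and Arrb2 of this list were not tested, so Grk5 was not set against them. Grk6, a widely expressed receptor kinase, was higher by 0.26 at day 1 and 0.34 at day 3 (SE 0.065), but both calls were lost under all 3 other scalings, at 0.0076 to 0.11 for day 1 (adjusted p up to 0.962) and 0.17 to 0.22 for day 3 (adjusted p up to 0.281). Arrb1, beta-arrestin 1, was higher by 0.31 at day 1 (SE 0.12, adjusted p = 0.0430) and 0.63 at day 3 (adjusted p = 0.000710), with the day 1 call lost without any 1 of 7 arrays (adjusted p up to 0.124) and under all 3 other scalings (0.057 to 0.16). Grk3 was lower, with a difference of -0.26 at day 1 (SE 0.098, adjusted p = 0.0397), a call lost without any 1 of 8 arrays (adjusted p up to 0.0913).

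Of 6 tested genes of protein phosphatase 1 and its regulators, beside Ppp1r1a, 2 were higher and 2 lower at day 1, 1 was higher and 2 lower at day 3, and 0 were called at day 7 in limma, where 1 had an unadjusted p under 0.05. Both lower genes encode subunits that target the phosphatase to glycogen. Ppp1r3a was lower, with a difference of -1.45 at day 1 (SE 0.53, adjusted p = 0.0380) and -1.88 at day 3 (adjusted p = 0.0104), with the day 1 call lost without array 13 or 14 or sham array 2, 3 or 4 (-1.47 to -0.87). Ppp1r3c was lower, with a difference of -1.78 at day 1 (SE 0.40, adjusted p = 0.00297) and -1.61 at day 3 (adjusted p = 0.00514). Without array 31 the day 3 difference of Ppp1r3c was -1.10. The catalytic subunit gene Ppp1cc was higher by 0.93 at day 1 (SE 0.13, adjusted p = 9.95e-05), but not after quantile normalisation (0.49, adjusted p = 0.119). Its day 3 call was lost under all 3 other scalings. Of 8 transcription factors and coactivators of the cyclic AMP response, 1 was called at day 1 (Atf1, higher by 0.55, a call lost under all 3 other scalings at 0.29 to 0.40 and adjusted p up to 0.144) and 1 at day 3 (Crem, lower, difference -0.14, a call lost without any 1 of 13 arrays).

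The genes whose pattern lay nearest to each member were found as the smallest root mean square log2 distance over the 12 arrays after infarction, each gene taken relative to its own sham mean. For Pde3a these were Ogdh (0.149) and Idh3a (0.155), which encode enzymes of the citric acid cycle, and Pde3a's own root mean square departure from sham was 1.42. For Adcy5 they were Slc41a1 (0.153) and Antxr2 (0.166), against 1.26 for Adcy5 itself. For Grk5 they were Ssr1 (0.260) and Tln1 (0.263), against 1.44 for Grk5. For Pde4b they were Ptger2 (0.107), a prostaglandin receptor that couples to adenylyl cyclase, and Csrnp1 (0.109), against 0.284 for Pde4b. The nearest genes of Adra1b (Catsper2 and Pcx, 0.0568 and 0.0621) and Ppp1r1a (Ccdc51 and Muc3, 0.0697 and 0.0796) rest on departures of 0.264 and 0.173, which for these dim rows are within the range of background.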

How the data were processed

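Total RNA from atria was hybridised to 16 one-colour Affymetrix arrays. The deposited table holds log2 signals of 72688 rows, made with Affymetrix Expression Console per the submitters' processing notes; no source used here states its summarisation settings, and the array design named in the labels differs from the row identifiers, which are transcript clusters. Gene names came from the platform annotation given here, with 813 symbols updated, and 2146 rows with several symbols were left out. Members and gene lists were chosen with earlier results of these data known. The brightest row stood for a gene. limma 3.58.1 in R 4.3.3 (eBayes with a trend) was fitted to 16 arrays and 18419 genes and tested on simulated data first. Background was the median of each array's negative control rows, a rule chosen after seeing the data. Pathway genes named were, per list, up to 3 called genes with the largest difference from sham, and the 2 nearest genes were named per member. Planned comparisons between related members (1 receptor pair and 2 phosphodiesterase pairs) were not run, because each needed 1 of the 3 genes not analysed here. Alternatives were other scalings, filters, weights, row rules and leaving out each array; centring on negative controls was added after seeing the data. With 4 arrays a group, precision is limited by their number.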

Additional observations from a re-analysis of the deposited data

Results flagged for a closer look

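Single arrays lay apart from the other 3 of their group, past Dixon's 95% critical value of 0.829, in 22 of 128 gene groups tested (32 genes, 4 groups), where chance gives about 1 in 20. Of the 22, 14 were array 31 of day 3. In that array the members Pde3a (6.65, the other day 3 arrays 8.71 to 8.83) and Adcy5 (5.63, the others 6.57 to 6.70) were low. So were Maob (6.38), Gnb1 (14.18), Adcy6 (6.72), Adcy7 (6.56), Pde7a (6.69), Prkaca (8.72), Pkia (9.44), Bves (8.60), Grk6 (5.02), Grk3 (5.36), Ppp1r3a (12.38) and Ppp1r3c (7.94). Array 31 also had the lowest share of brighter positive controls (0.743) and a neutrophil marker mean 6.61 above sham, and the part of these in its values was not tested.

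Array 13 of day 1 stood apart for Pde7b (7.19, the others 8.42 to 8.66) and Slc18a2 (4.63, the others 4.49 to 4.51). The remaining single arrays were array 34 of day 3 (4.34) and array 74 of day 7 (4.14) for Adra1b, both below background, array 72 of day 7 for Pde3a (9.30), array 12 of day 1 for Akap2 (10.98), and sham array 1 for Adcy6 (8.87) and sham array 4 for Arrb1 (6.91).

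The change from sham differed between days for 3 members by the limma test of the difference itself. Pde4b was lower at day 3 than at day 1, with a difference of -0.38 (adjusted p = 0.0321) and at day 7 than at day 1, with a difference of -0.47 (adjusted p = 0.00393). Adcy5 was higher at day 7 than at day 3 by 0.84 (adjusted p = 0.0197) and than at day 1 by 0.81 (adjusted p = 0.0131). Grk5 was lower at day 7 than at day 1, with a difference of -0.68 (adjusted p = 0.0437). All but the day 7 against day 1 call of Adcy5 were lost under at least 1 other scaling. After centring on the negative controls the adjusted p was 0.201 for Grk5. For Pde4b it was then 0.159 at day 3 and 0.104 at day 7, each against day 1. For Adcy5 at day 7 against day 3 it was 0.0529 after quantile normalisation.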

How the results depend on the processing

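Among the 6 genes, 10 of the 11 calls against sham held whichever single array was left out. The exception was Pde3a at day 1. Of 51 calls among the 26 other pathway genes named, 37 held and 14 were lost without at least 1 array. Differences that were called in 1 fit and changed sign in the other were 5 of the 19 that changed sign under any setting; the other 14 were called in neither. The 5 were Adra1b with a floor at the negative control median (0.20 at day 1 and 0.12 at day 3 against sham, -0.23 at day 7 against day 1), Slc18a2 at day 1 with that floor (0.046) and Ppp1cc at day 3 after quantile normalisation (-0.038). For Adra1b and Slc18a2 the floor replaced every value after infarction in these comparisons. Their sign changes therefore follow the control rows and do not test the genes. Adcy3, outside these named genes, was called higher at day 3 as deposited (0.12) and also changed sign, as given above.

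Members called at day 7 against sham (2) were 1 with arrays centred on negative controls or with the floor, 5 with array weights or the 2 groups alone, and 2 to 5 with arrays left out, 4 without array 31 and 5 without arrays 13 and 31. Calls over all tested genes also rose with weights or the 2 groups alone and fell with centring, as given below. These counts therefore do not set the members apart. At day 3 against day 1 (1) there were 0 after quantile normalisation, either centring, no filter or the 2 groups alone, and 0 to 1 with an array left out. For day 7 against day 3 (1) there were 0 after quantile normalisation, centring on the array median or the 2 groups alone. For day 7 against day 1 (3) there was 1 under either centring. Pathway genes called at day 7 against sham (17) were 11 after quantile normalisation, 9 under either centring, 42 with array weights, 36 with the 2 groups alone, and 14 to 35 with arrays left out (30 without array 31, 35 without arrays 13 and 31).

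Genes called for any difference from sham by limma's F test (9637) were 14599 with array weights. At day 7 against sham (4568) they were 2802 centred on the array median, 2708 centred on negative controls, 8280 with weights, 7122 with the 2 groups alone and 3320 to 7480 with arrays left out. At day 3 against day 1 (1494) they were 775 after quantile normalisation, 772 and 912 under the centrings, 7446 with weights, 254 with the 2 groups alone and 807 to 6543 with arrays left out (the highest without array 31). At day 7 against day 3 (2327) they were 892, 1121, 1113, 5152 and 856 under those settings and 1455 to 3802 with arrays left out. For day 7 against day 1 (4855) they were 9601 with weights and 3311 to 9244 with arrays left out. The causes were not tested.

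No paired analysis was run, because the labels give no pairing and the array numbers differ between groups. The planned comparison of related genes was not run, since Adra1a and Pde4d were not analysed here. Signal over background limits Adra1b and Ppp1r1a.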
